A study of Mus musculus with 18 samples.

Results

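The genes described here are 9 markers that separate atrial from ventricular cardiomyocytes (CMs). *Myl7*, *Myl4*, *Sln*, *Mybphl*, *Sbk2*, *Fgf12* and *Myl1* were taken as atrial, and *Myl2* and *Myl3* as ventricular. These 9 of the 35843 Ensembl genes in the count tables are known for this pattern, and they were also selected on their measured values, the raw UMIs of the same wells by stage and chip. Their levels by stage, by chip and by well are therefore given as a description without a test. Single cells sat in the nanowells of ICELL8 chips, and a unique molecular identifier (UMI) was counted for each molecule of RNA captured.

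To follow CMs after birth, the study took cells from Myh6/Esr1-Tomato mice on day 4 after birth (P4, 2 chips), day 7 (P7, 2 chips), day 14 (P14, 2 chips) and day 28 (P28, 6 chips). In this strain the *Myh6* promoter drives a tamoxifen-dependent Cre, so that the TDtomato reporter marks CMs of atria and ventricles alike, and the pups of all 4 stages received tamoxifen through their dams. A further 6 chips held CMs and other cells of adult P28 mice of the same strain whose left ventricular wall had been injected shortly after birth with lentivirus carrying a hairpin against *Jun* (shJun) or a non-targeting hairpin (shNT), 2 animals each. The label of each well names its animal. Per the labels, P4 and P7 hearts were cut into ventricle pieces, some from next to the auricle, before digestion with a kit. P14 and P28 hearts were digested by perfusion, so age and preparation cannot be told apart between P7 and P14. Both P4 chips carried wells of the same animal names, M1 and M2, and the SD over chips may not cover the spread between mice.

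The contractile unit of the heart uses different myosin light chains in its chambers. In atrial CMs the regulatory light chain is the product of *Myl7* and the essential light chain that of *Myl4*, while ventricular CMs use *Myl2* and *Myl3* in the same places. *Myl4* is also made in the embryonic ventricle and declines there around birth, and sarcolipin, the product of *Sln*, takes in the atrium the place that phospholamban has in the ventricle as an inhibitor of the calcium pump SERCA.

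Of the 23475 wells that held a cell, 19822 had enough genes and a usual UMI total, and 5970 of these were CM-like, meaning that they fell in clusters led by 8 CM markers (none of the 9 genes among them). CM-like wells numbered 171 and 178 on the P4 chips, 15 and 22 on the P7 chips, 314 and 150 on those of P14, and 638, 575 and 632 on P28 replicates 1, 3 and 5. P28 replicates 2, 4 and 6 held 1, 3 and 2 CM-like wells and gave no level. On the chips without hairpins that gave a level, the CM-like wells of a chip together held between 822435 and 23681040 UMIs. The median per CM-like well there ran from 5252 UMIs on P28 replicate 5 to 51617 on P7 replicate 1. The chips share 4890 of 5051 well barcodes, which name well positions and not cells.

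The 9 genes lie on 7 chromosomes of GRCm38, the build also called mm10 (GENCODE M21 annotation). *Myl7* is at chr11:5896637-5898782 on the minus strand, *Myl4* at chr11:104550663-104595753 on the plus strand, *Sln* at chr9:53850164-53854560 (plus), *Mybphl* at chr3:108364911-108380057 (plus) and *Sbk2* at chr7:4940512-4964406 (minus). *Fgf12* is at chr16:28160098-28753068 (minus), *Myl1* at chr1:66924295-66945404 (minus), *Myl2* at chr5:122100951-122113472 (plus) and *Myl3* at chr9:110741861-110769798 (plus). The annotation places other genes over some of them, and whether the counting used strand is not given in the sources used here. Over all wells *Sbk2* had 2516 UMIs and the overlapping *Ssc5d* 6027, so the split between those genes is uncertain. *Myl4* had 50519 UMIs against 2611 for the pseudogene *Gm11663* and 2214 for the antisense gene *Gm11665*, and *Myl3* had 3403534 against 6602 for *Pth1r*.

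Because the genes below differed together between wells, the bases before the start of 3 of them are shown, a regulatory light chain, a thick filament protein and an essential light chain. They were taken from the RefSeq promoter table (GRCm38.p6) for *Myl7* at chr11:5898783-5899032 (minus strand), *Mybphl* at chr3:108364661-108364910 (plus) and *Myl3* at chr9:110763428-110763645 (plus, ending where an annotated exon begins). They lie outside the annotated exons, and the *Myl3* window lies in an intron of a longer *Myl3* transcript. Capitals mark the letters that matched a searched motif on either strand.
Myl7: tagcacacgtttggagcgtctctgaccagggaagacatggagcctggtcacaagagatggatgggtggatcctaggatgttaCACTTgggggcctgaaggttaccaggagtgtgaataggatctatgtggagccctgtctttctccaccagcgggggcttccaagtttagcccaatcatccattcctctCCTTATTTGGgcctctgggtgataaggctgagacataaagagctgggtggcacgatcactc
Mybphl: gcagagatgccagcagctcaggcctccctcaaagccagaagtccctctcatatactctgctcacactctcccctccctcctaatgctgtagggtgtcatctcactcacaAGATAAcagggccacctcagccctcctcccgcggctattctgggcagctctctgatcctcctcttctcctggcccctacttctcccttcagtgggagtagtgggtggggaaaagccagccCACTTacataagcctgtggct
Myl3: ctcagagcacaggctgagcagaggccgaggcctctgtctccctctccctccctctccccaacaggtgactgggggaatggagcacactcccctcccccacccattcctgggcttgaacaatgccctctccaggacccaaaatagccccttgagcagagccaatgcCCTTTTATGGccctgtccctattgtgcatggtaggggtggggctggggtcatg
Counted back from -1 at the base before the start, the *Myl7* window held AAGTG, the core of the NKX2-5 site, on the minus strand from -168 to -164 and a CArG box, which serum response factor binds, from -61 to -52. The *Mybphl* window held the GATA motif AGATAA from -141 to -136 and AAGTG on the minus strand from -21 to -17. The *Myl3* window held a CArG box from -85 to -76. For *Myl3* these positions count from the start in the promoter table, which lies inside the annotated exon and beyond the last printed base. No match overlapped another. Over 32841 windows of the table, 40.7% held AAGTG, 9.99% AGATAA and 1.47% a CArG box. The T-box motif AGGTGT (11.8% of windows), TATAAA (12.4%) and the MEF2 motif (2.92%) were not found in the printed windows. The table held no window for *Sln*.

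The regulatory light chain of the atrium, *Myl7*, stood at 103 and 132 UMIs per 10000 in the CM-like wells of the P4 chips. On the P7 chips it was 4.56 and 0.00871, on the P14 chips 0 and 0.0113, and 0.199, 0.254 and 0.955 on P28 replicates 1, 3 and 5. Both P4 chips were above every later chip, with a mean of 117 ± 20.3 (SD, n = 2) against 0.469 ± 0.421 (n = 3) at P28. On the pooled P14 wells *Myl7* had 2 UMIs, and the ratio of P4 to P14 was 39007 (exact counting interval of 95%, 10798 to 322099, counting error only). The order of means was P4, P7, P28, P14, and P7 and P28 overlapped.

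*Sln* followed the same order. It stood at 52.9 and 71.6 UMIs per 10000 at P4, 2.21 and 0 at P7, 0 on both P14 chips, and 0.225, 0.0861 and 0.903 at P28. With 0 UMIs at P14, where 3 UMIs would give 0.00640 and 0.0169 per 10000 on the 2 chips, *Sln* was at least 13880-fold lower than at P4 (floor of 3 counts over the stage). *Myl4* differed by less: it stood at 15.4 and 18.4 at P4, 4.17 and 0.540 on the P7 chips, 0.0683 and 0 on those of P14, and 0.0418, 0.0722 and 0.704 at P28. The P4 mean of *Myl4* was 62.0-fold that at P28, compared with 250.2-fold for *Myl7* and 154-fold for *Sln*. These folds are values of 2 and 3 chips and their differences were not tested.

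*Mybphl*, a relative of the myosin binding proteins, stood at 1.03 and 2.11 UMIs per 10000 at P4 and had 2 UMIs at P14 and 3 at P28. *Sbk2*, a protein kinase, stood at 0.616 and 1.12 at P4, between 0 and 0.00871 at P7 and P14 and between 0.00422 and 0.0595 at P28. *Fgf12*, an intracellular fibroblast growth factor homologue that acts on sodium channels, stood at 1.72 and 0.971 at P4, 0.304 and 0.0261 at P7, and at most 0.0225 later. These 3 genes gave the fewest UMIs of the set at P4, and for each of them the P4 chips were above all others.

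*Myl1*, the essential light chain of fast skeletal muscle, kept, of the 7 atrial genes, the highest P28 level relative to P4. It stood at 6.72 and 4.14 UMIs per 10000 at P4, 2.66 and 0.392 on the P7 chips, 0.0640 and 0.113 on those of P14, and 0.386, 0.105 and 0.155 at P28. A UMI of *Myl1* was found in 13.9% of CM-like wells on P28 replicate 1 and 6.80% on replicate 5, whose median depths were alike. Over the 1851 CM-like wells of P28 the share was 11.1% (median 9208 UMIs), against 5.85% of 1077 endothelial-like wells (median 7456 UMIs). After thinning to 1000 UMIs a well, the shares were 1.46% and 1.02%. The endothelial-like wells of P28 held CM RNA to an uneven degree, with *Myl2* between 4.49 and 258 UMIs per 10000 over the chips.

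Of the ventricular light chains, *Myl2* went the other way and was lowest at P4, and both varied over a far smaller range. *Myl2* stood at 90.0 and 103 UMIs per 10000 at P4, 143 and 157 on the P7 chips, 145 and 113 on those of P14, and 122, 210.1 and 305 at P28. Only the P4 chips stood below all others, and P7, P14 and P28 overlapped. *Myl3* had levels of 34.0 and 49.7 at P4, of 51.0 and 56.2 on the P7 chips, of 42.2 and 40.9 on those of P14, and of 48.8, 89.0 and 50.8 at P28. For *Myl3* the P7 and the P28 chips were all above those of P14, and the P7 chips above those of P4, while the P4 chips overlapped with P14 and with P28. The P28 mean of *Myl2* was 2.20-fold and that of *Myl3* 1.5-fold the P4 mean.

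**Figure D1:**
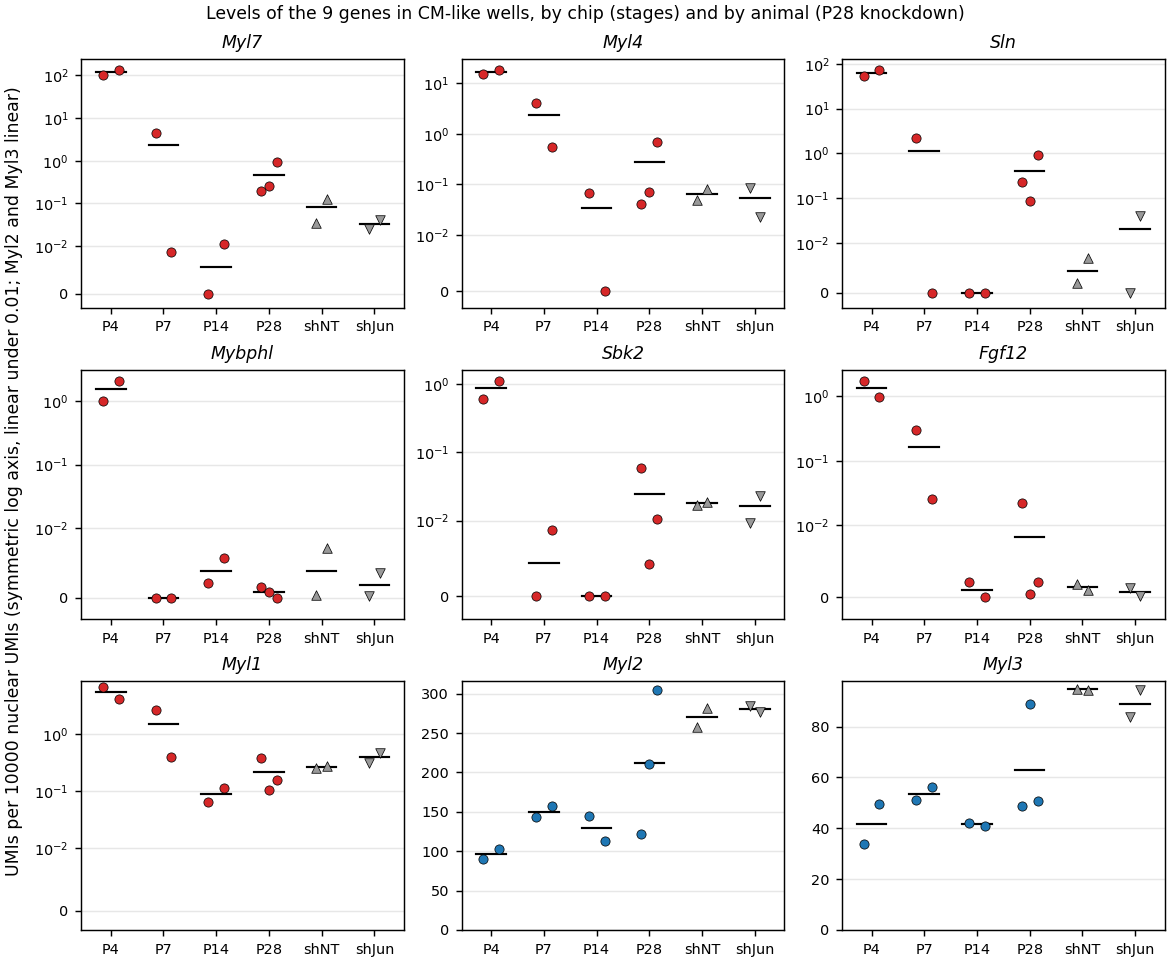
UMIs per 10000 of each gene in the CM-like wells, with 1 point per chip at each stage and 1 triangle per animal for shNT and shJun; bars are means, and the axes of the atrial genes are logarithmic above 0.01 and linear below. The atrial genes are highest on both P4 chips, *Myl7* at 103 and 132, while *Myl2* lies between 90.0 and 305 on every chip shown for the stages.

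The small later levels came from few wells on some chips. On P7 replicate 1, 98.4% of the *Myl7*, 100% of the *Sln* and 86.6% of the *Myl4* UMIs of the CM-like wells came from 1 well. On P28 replicates 1 and 3, 72.6% and 74.0% of *Myl7* came from 1 well each. P28 replicate 5 was different: 19.0% of its 632 CM-like wells held *Myl7* and 10.6% held *Sln*, and its highest well gave 8.24% of the *Myl7* UMIs. On that chip *Nppa* also stood at 3.08 per 10000 in the CM-like wells, against 0.0370 and 0.0904 on replicates 1 and 3.

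To see whether the light chains shared wells, each CM-like well with at least 10 UMIs of *Myl7* plus *Myl2* was placed by the share of *Myl7* in their sum. Wells with a share of at least 0.9 were called *Myl7*-led, those of at most 0.1 *Myl2*-led, and the rest mixed. At P4, 38 wells on chip 1 and 40 on chip 2 were *Myl7*-led, 22.3% ± 0.177 (SD, n = 2) of the CM-like wells. The *Myl2*-led wells made up 57.0% ± 1.22 and the mixed wells 20.7% ± 1.4. By named animal, the *Myl7*-led share was 27.9% (exact Clopper-Pearson 95% interval 17.7 to 40.1%) and 26.6% (16.3 to 39.1%) for M1 on chips 1 and 2, and 18.4% (11.5 to 27.3%) and 20.2% (13.2 to 28.7%) for M2, with M1 above M2 on both chips. The *Myl2*-led share was 42.6 and 48.4% for M1 and 65.0 and 63.2% for M2. The intervals cover the counting of wells and not the spread between animals, and the animals were not compared by a test.

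The share of *Myl7* gathered at its ends. Of the 349 P4 wells, 29 held no *Myl7*, 149 had a share above 0 and up to 0.05, and 43 a share of at least 0.95. Between 0.2 and 0.5 lay 13 wells, and between 0.5 and 0.8 lay 12. Near the limits, 25 wells lay between 0.8 and 0.9, 22 between 0.1 and 0.2 and 21 between 0.05 and 0.1, so the classes are ranges of a share and not types. With the limit at 0.8 the *Myl7*-led share was 29.5%, and with CMs called well by well it was 13.0%.

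After P4 no CM-like well was *Myl7*-led. The counts were 0 of 15 and 0 of 22 wells at P7, 0 of 313 and 0 of 145 at P14, and 0 of 636, 0 of 575 and 0 of 632 on P28 replicates 1, 3 and 5, where 3 wells would have been shares of 20% and 13.6% at P7, 0.958 and 2.07% at P14, and 0.472, 0.522 and 0.475% at P28. With so few wells at P7, those limits were close to the share at P4. In the knockdown hearts none of the CM-like wells was *Myl7*-led either. The few mixed wells were 1 at P7 and 2 at P28. The labels describe the P4 tissue as ventricle, and the *Myl7*-led wells came from both P4 chips and both named animals.

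**Figure D2:**
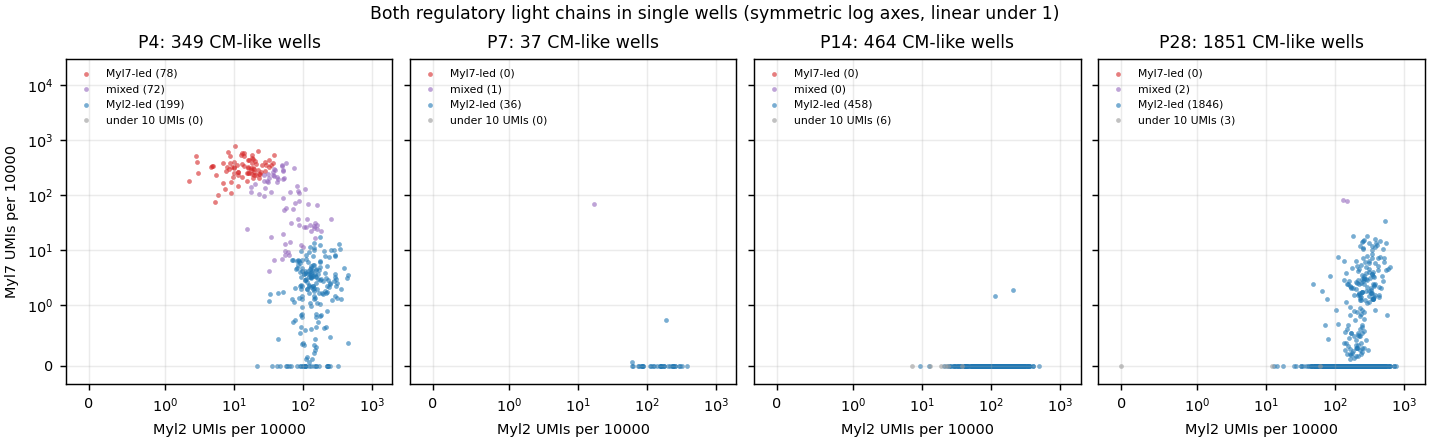
Each point is a CM-like well, with UMIs per 10000 of *Myl2* on the x axis and of *Myl7* on the y axis (both logarithmic above 1 and linear below), coloured by class. At P4, 78 wells are *Myl7*-led, 72 mixed and 199 *Myl2*-led; at P7, P14 and P28 no well is *Myl7*-led.

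UMIs of these genes were also found in wells of other cell types. At P4 a UMI of *Myl7* was found in 91.7% of CM-like wells and in 84.6% of endothelial-like wells, with median depths of 23945 and 11473 UMIs. After thinning each well to 1000 UMIs, the shares were 53.9% against 45.3% for *Myl7* and 95.1% against 91.8% for *Myl2*, so detection of either light chain hardly separated CMs from other cells. The scarcer atrial genes separated them further: 39.8% against 22.2% for *Sln*, 40.4% against 18.8% for *Myl4*, 23.8% against 4.33% for *Myl1*, 10.03% against 1% for *Mybphl*, 9.74% against 0.667% for *Fgf12* and 7.45% against 0.5% for *Sbk2*.

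The same background sets what a mixed well can show. The background was read in the endothelial-, fibroblast-, macrophage- and mural-like wells of P4, 749 on chip 1 and 896 on chip 2. The 365 wells of the P4 cluster named erythroid, which had raised CM markers, were left out. In the wells read, the median was 3 and 10 UMIs of *Myl7* and 37 and 69 of *Myl2*. Their 95th percentiles were 49.2 and 123 UMIs of *Myl7* and 285 and 299 of *Myl2*. Only 7 of the 72 mixed wells exceeded both percentiles of their chip, 40 exceeded that of *Myl7* and 11 that of *Myl2*. Of the *Myl7*-led wells 76 of 78 exceeded the *Myl7* percentile and 2 that of *Myl2*, and of the *Myl2*-led wells 114 of 199 exceeded the *Myl2* percentile and 4 that of *Myl7*. *Myl2* stood at 13.1 and 14.6 UMIs per 10000 in the *Myl7*-led wells, below its level of 41.9 to 42.0 in endothelial-like wells. Mixed wells were also the shallowest, with medians of 12881 and 16511 UMIs against 18933 and 45889 in *Myl7*-led and 18527 and 35859 in *Myl2*-led wells. Their median share of mitochondrial UMIs was 22.7 and 31.3%, against 14.7 and 14.1% and against 22.1 and 21.7%. The part of free RNA in the mixed wells was not tested.

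The other 7 genes followed the classes, which were cut from *Myl7* and *Myl2* alone. In the *Myl7*-led wells *Sln* stood at 148 and 224 UMIs per 10000 on chips 1 and 2, against 0.666 and 1.51 in the *Myl2*-led wells. *Sln* in single *Myl7*-led wells ran from 4.46 to 306 on chip 1 and from 33.8 to 633 on chip 2, so no such well lacked it. *Myl4* stood at 31.2 and 52.5 against 0.809 and 1.86. On the log2 scale *Sln* was thus higher by 7.79 and 7.21, and *Myl4* by 5.27 and 4.82.

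*Mybphl* marked the *Myl7*-led wells most cleanly by detection. It was found in 36 of 38 and 39 of 40 of them, against 3 of 96 and 12 of 103 *Myl2*-led wells, and stood at 2.84 and 6.62 UMIs per 10000 against 0.00956 and 0.0495. *Myl1* was found in 36 and 37 of the *Myl7*-led wells, but also in 22 and 36 of the *Myl2*-led ones. *Sbk2* was found in 20 and 37 of the *Myl7*-led wells against 4 and 6, and *Fgf12* in 24 and 30 against 5 and 3. The chips thus differed in how often *Sbk2* was found, at median depths of 18933 and 45889 UMIs. All 7 atrial genes were found together in 11 and 26 of the *Myl7*-led wells and in none of the *Myl2*-led wells.

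*Myl3*, the ventricular essential light chain, stood at 6.90 and 10.6 UMIs per 10000 in the *Myl7*-led and at 50.9 and 71.0 in the *Myl2*-led wells. Its log2 difference, -2.88 and -2.75, was close to that of *Myl2*, -3.40 and -3.38. *Tnnt2*, which all CMs use, stood at 107 and 100.0 against 111 and 127. The TDtomato reporter stood at 2.36 and 2.30 in the *Myl7*-led and at 4.07 and 3.65 in the *Myl2*-led wells.

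**Figure D3:**
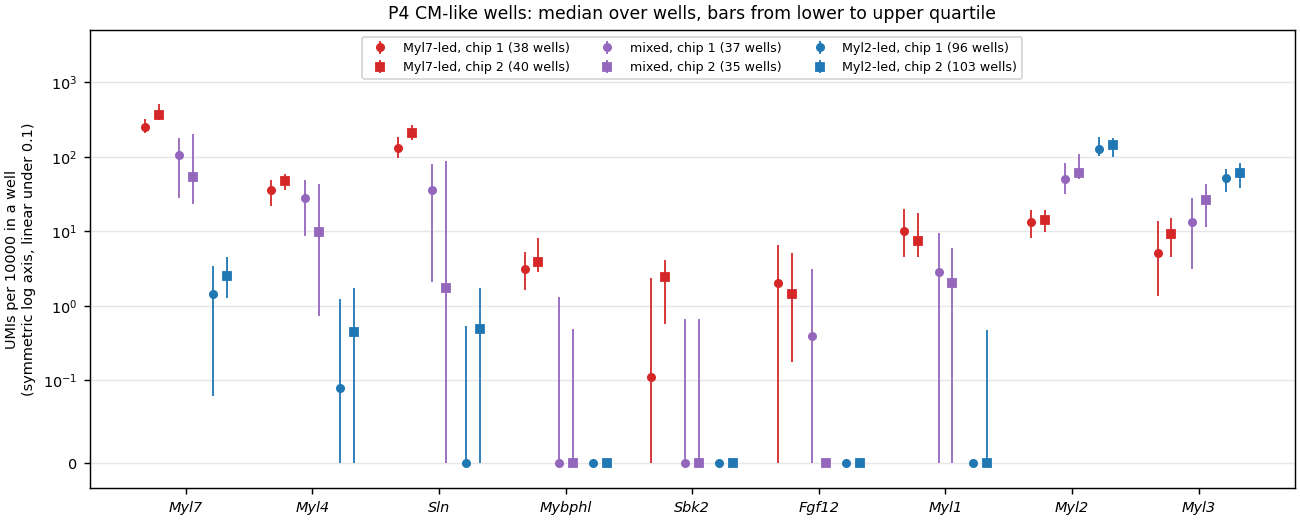
UMIs per 10000 of the 9 genes in the *Myl7*-led, mixed and *Myl2*-led wells of P4, for chips 1 and 2; points are medians over wells and bars the quartiles. All 7 atrial genes are highest in the *Myl7*-led wells, and *Myl2* and *Myl3* in the *Myl2*-led wells.

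The regulatory and the essential light chains were matched within wells. The share of *Myl4* in the sum of *Myl4* and *Myl3*, in wells with at least 10 UMIs of both together, had a median of 0.884 and 0.830 in the *Myl7*-led wells of chips 1 and 2. In the *Myl2*-led wells the median was 0.00377 and 0.00624. *Myl4* exceeded *Myl3* in 71 of 78 *Myl7*-led wells and in 1 of 190 *Myl2*-led wells. In the mixed wells it did so in 39 of 70, with medians of 0.770 and 0.316. These shares compare molecules of different genes, whose capture can differ, and the contrast between the classes rests on the same genes in each.

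Across all CM-like wells of P4, Spearman's rho of the per-well levels was 0.75 and 0.62 for *Myl7* with *Sln*, 0.75 and 0.70 for *Myl7* with *Myl4*, and 0.69 and 0.72 for *Myl2* with *Myl3* (171 and 178 wells). It was -0.68 and -0.64 for *Myl7* with *Myl2*. These values describe wells that share libraries, depth and free RNA. Within the *Myl7*-led wells, whose *Myl7* values the cut restricts, rho for *Myl7* with *Sln* was 0.03 and -0.03. Within the mixed wells it was 0.76 and 0.67.

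Genes that carry no weight in the classes were read next, from 13 further atrial and 7 further ventricular genes. Of the atrial list 12 of 13 were higher in the *Myl7*-led wells on both chips, and all 7 of the ventricular list were lower. Among the 10939 genes with at least 50 UMIs at P4, 23.5% were higher on both chips and 32.2% lower (by more than 1 on the log2 scale, 558 and 1152 genes), and the median difference was -0.19 and -0.08. *Nppa*, the precursor of atrial natriuretic peptide, stood at 28 and 30.2 UMIs per 10000 against 0.354 and 0.645. *Bmp10*, a growth factor of the BMP family, stood at 3.33 and 0.869 against 0 and 0.00183. *Dkk3*, a secreted glycoprotein, stood at 3.35 and 6.75 against 0.121 and 0.0476. *Kcna5*, a potassium channel of the ultrarapid current, was the exception and went in different directions on the chips.

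Of the transcription factors in these lists, *Tbx5* stood at 1.21 and 0.660 UMIs per 10000 in the *Myl7*-led and at 0.102 and 0.0495 in the *Myl2*-led wells. *Hey2*, a repressor of the ventricular compact layer, stood at 0.00615 and 0 against 0.319 and 0.220, and *Irx5*, an Iroquois factor, at 0.00615 and 0.00395 against 0.280 and 0.194. *Gja5*, the gap junction protein connexin 40, stood at 1.06 and 0.573 against 0.0542 and 0.0458. Phospholamban (*Pln*), the SERCA inhibitor of the ventricle, stood at 4.12 and 3.86 against 25.8 and 24.0, opposite to *Sln*. CM-like wells were called from genes outside both lists.

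Ranked by the smaller of the 2 chips' log2 differences between the classes, *Sln* came 7th, *Mybphl* 8th, *Myl7* 13th, *Fgf12* 20th, *Myl4* 27th, *Sbk2* 33rd and *Myl1* 47th of the 10939 genes. *Myl2* came 118th and *Myl3* 208th from the other end. The places of *Myl7* and *Myl2* follow from the cut that made the classes. The other genes of the set were selected with the counts of these wells known. Their ranks are therefore a description and no test of the set. The 8 genes outside the set that ranked highest included *Uts2b*, a urotensin-related peptide, *Npy1r*, a neuropeptide Y receptor, *Bmp10* and the kinase *Camk1d*. *Uts2b* stood at 1.30 and 1.04 UMIs per 10000 in the *Myl7*-led wells, was found in 11 and 13 of them, and had no UMI in a *Myl2*-led well. *Camk1d* was found in 15 and 18 *Myl7*-led and in 2 and 3 *Myl2*-led wells. The other 4 were *Gm13715*, *Platr26*, *Extl1* and *Gm13054*, and *Gm13715* was found in only 1 and 3 of the *Myl7*-led wells. *Platr26* was found in 2 and 4 of them, *Extl1* in 2 and 7 and *Gm13054* in 9 and 18. For *Extl1*, 72.7% of the UMIs in the CM-like wells of P4 came from 1 well. At the other end stood *Mpped2*, *BB218582*, *Gpr22*, *Cachd1* and *Fam107b*. *Gpr22*, an orphan G protein-coupled receptor, was found in 19 and 19 *Myl2*-led and in 1 and 0 *Myl7*-led wells.

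**Figure D4:**
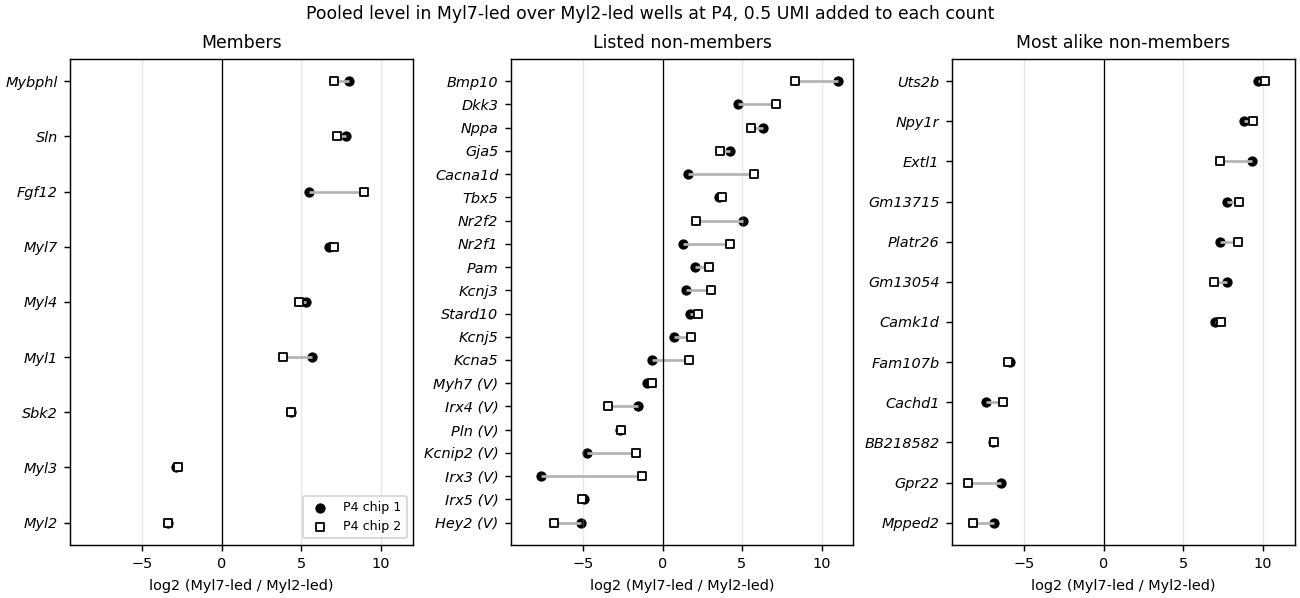
Log2 difference between the pooled levels of the *Myl7*-led and *Myl2*-led wells of P4 on chips 1 and 2, for the 9 genes, the 20 listed genes and the most alike other genes. Positive values are higher in *Myl7*-led wells: *Sln* lies at 7.79 and 7.21, *Myl2* at -3.40 and -3.38, and *Kcna5* on both sides of 0.

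The listed genes were tested between stages with edgeR's quasi-likelihood test on the summed UMIs of the CM-like wells per chip, with 2 chips at P4 and P14, 3 at P28 and 1 at P7. The p-values measure the spread between chips, which may be technical. From P4 to P14, 6 of the 13 atrial genes fell and 1 rose, and 1 of the 7 ventricular genes fell. Of all 15705 genes tested 3.56% were called, 1.46% lower and 2.1% higher. The median log2 change of the atrial list was -1.11, against -0.11 for all genes. In bulk sums such as these, fewer cells of a type and less RNA per cell cannot be told apart.

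*Dkk3* stood at 1.82 and 2.05 UMIs per 10000 at P4 and at 0.0213 and 0 at P14, a log2 change of -6.30 (SE 0.84, edgeR adjusted p = 0.00045). *Stard10*, a lipid transfer protein, stood at 1.14 and 1.27 and then at 0.0128 and 0.0113 (-5.80, SE 0.71, edgeR adjusted p = 0.00016). *Pam*, the enzyme that amidates secreted peptides, stood at 10.7 and 8.74 and then at 1.39 and 1.46 (-2, SE 0.47, edgeR adjusted p = 0.0233). For *Stard10* and *Pam* the groups did not overlap and UMIs remained at both ages.

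*Nppa* stood at 11 and 9.68 UMIs per 10000 at P4 and had 2 UMIs in all P14 wells, 3292 times less (edgeR adjusted p = 0.0029, exact counting interval 911 to 27185). *Bmp10* and *Gja5* had 1 UMI each at P14, with ratios of 409 (73.2 to 16171, adjusted p = 0.0018) and 208 (37.2 to 8250, adjusted p = 0.0164) by the same edgeR test. *Kcna5* rose, from 0.0178 and 0.0274 to 0.169 and 0.0564 (log2 change 3.14, SE 0.77, edgeR adjusted p = 0.0288). *Irx3*, of the ventricular list, fell from 0.361 and 0.380 to 0.0342 and 0.0226 (-2.86, SE 0.72, edgeR adjusted p = 0.0327).

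Between P4 and P28 the calls were much alike, and they share the P4 chips. Of the atrial list, 5 of 13 fell (*Bmp10*, *Gja5*, *Stard10*, *Dkk3* and *Pam*) and *Kcna5* rose, while none of the ventricular list was called. Of all genes 3.65% were called, 1.54% lower and 2.11% higher. The median of the atrial list was -1.84, against 0.03 for all genes. *Nppa* was not called at P28 (-3.03, SE 0.99, edgeR adjusted p = 0.099). Its replicate 5 stood at 3.08 UMIs per 10000 while replicates 1 and 3 stood at 0.0370 and 0.0904. Between P14 and P28 none of the 20 genes was called by edgeR. Of all genes 10 were called (0.0637%, with 0.0318% higher and 0.0318% lower) and 1544 had an unadjusted p under 0.05.

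When only *Myl2*-led wells were summed, an alternative chosen after seeing the data, fewer of these genes were called. This cut took 78 *Myl7*-led and 72 mixed wells out of the 349 of P4. At P14 there was no well of either class to take out. Genes higher in the *Myl7*-led wells lose P4 UMIs by the cut itself, so the lost calls are no separate test. From P4 to P14, 3 of the 8 calls remained (*Kcna5* higher, *Stard10* and *Irx3* lower) and *Irx5* was called lower besides, with 2.56% of all genes called. *Nppa* had levels of 0.354 and 0.645 in the *Myl2*-led wells of P4 and of 0.00428 and 0 in those of P14 (edgeR adjusted p = 0.0515). *Gja5* had 0.0542 and 0.0458 and then 0 and 0.0057 (edgeR adjusted p = 0.268), and *Dkk3* 0.121 and 0.0476 and then 0.0214 and 0 (edgeR adjusted p = 0.43). These 3 genes were lower at P14 on every chip without passing the test, and *Bmp10* was too scarce to be tested. The median of the atrial list was then 1.15 over the 12 genes tested, in place of -1.11 over 13, against -0.06 for all genes. *Nr2f1*, *Nr2f2* and *Cacna1d*, among the genes with a positive change, stood at no more than 0.0660 UMIs per 10000 in these wells at P4. *Tbx5*, *Kcnj3* and *Kcnj5* also had positive changes (2.05, 1.46 and 1.04) and were not called. Of these, *Kcnj3* was the most abundant, at 1.17 and 0.345 at P4 and 0.483 and 2.10 at P14, which overlap. The changes of *Nppa*, *Gja5*, *Stard10*, *Dkk3* and *Pam* were negative. From P4 to P28, 2 were called, *Kcna5* higher and *Stard10* lower, with 3.06% of all genes called. *Pam* stood at 4.15 and 2.47 UMIs per 10000 in the *Myl2*-led wells of P4 and at 1.39 and 1.48 in those of P14.

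The levels in the *Myl2*-led wells, a class cut from *Myl7* and *Myl2* themselves, are given as a description. *Myl7* stood there at 2.53 and 3.10 UMIs per 10000 at P4 and at 0.0549, 0.0660 and 0.955 on the P28 chips. *Myl2* was 139 and 152 there at P4, 145 and 114 at P14 and 122, 210.2 and 305 at P28, and these ranges overlap. *Myl3* was 50.9 and 71.0 there at P4, above its 42.2 and 41.1 at P14.

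To find atrial-like wells after P4, the number of atrial genes found per CM-like well was counted. At P4, 64 (37.4%) and 58 (32.6%) of the wells held at least 5 of the 7. After P4, 1 well of P7 replicate 1 held 5 or more, besides 1 on a knockdown chip. The P7 well, from animal M1, held 369 UMIs of *Myl7*, 297 of *Myl4*, 182 of *Sln*, 25 of *Fgf12* and 83 of *Myl1*. Beside them it held 92 of *Myl2* and 93 of *Myl3*, among 53155 UMIs of nuclear genes. It also held 204 UMIs of *Pam* and 21 of *Stard10*. Both mixed wells of P28 held the ventricular light chains in plenty. That of replicate 3 had 445 UMIs of *Myl7*, 150 of *Sln* and 88 of *Myl4* beside 708 of *Myl2* and 317 of *Myl3*, with 9 of the 13 listed atrial genes found. That of replicate 1 had 90 of *Myl7* and 69 of *Sln* beside 174 of *Myl2*, with 1 of the 13 found. A well of P28 replicate 6, in a cluster that stayed unnamed and so not among the CM-like wells, held 38 UMIs of *Myl7* and 120 of *Myl4* beside 4 of *Myl2*, a *Myl7* share of 0.905, with no UMI of *Sln* or *Myl3*.

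*Myl7* was otherwise often alone. Outside P4, 52 of 20770 wells with a cell held at least 20 UMIs of *Myl7*, and 44 of these had no *Sln*, 38 neither *Sln* nor *Myl4*, and 31 no other atrial gene. At P4, 703 of 2705 wells reached 20 UMIs, and 58 of these had neither *Sln* nor *Myl4*. What these lone counts come from was not tested.

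Whether knockdown of *Jun* moved the 9 genes at P28 was tested in the CM-like wells of 2 shNT and 2 shJun animals. *Jun* itself stood at 0.523 and 0.638 UMIs per 10000 in shNT and at 0.260 and 0.317 in shJun, a log2 difference of -1.05 (SE 0.24, edgeR adjusted p = 1). The groups did not overlap, and the difference did not pass the test. No gene of 17545 tested was called by edgeR (0%), 381 had an unadjusted p under 0.05, and DESeq2 called 14.

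Of the 9 genes 8 were tested and none was called, nor was any called under the alternatives tried, DESeq2 among them. *Myl2* stood at 257 and 282 UMIs per 10000 in shNT and at 284 and 277 in shJun (log2 difference 0.02, SE 0.24), and *Myl3* at 94.8 and 94.5 against 83.6 and 94.3 (-0.13, SE 0.22). *Myl1* stood at 0.249 and 0.270 against 0.314 and 0.467 (0.54, SE 0.28), with no overlap. *Myl7* stood at 0.0348 and 0.127 against 0.0255 and 0.0400 (-1.33, SE 0.67), where the groups overlapped. *Fgf12* had too few UMIs to be tested. *Nppa*, from the atrial list, stood at 0.241 and 0.157 in shNT and 0.902 and 0.578 in shJun (1.85, SE 0.36, edgeR unadjusted p = 0.002, adjusted p = 1). It was called by DESeq2, with no filter on low counts, and without either shNT animal, and not under the other alternatives.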

How the data were processed

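The 9 genes, the gene lists and the tests were chosen with earlier results of these data known. The authors mapped reads to mm10 with STAR 2.5.2b and assigned them with featureCounts (Subread 1.4.6-p1), and deposited raw UMI counts per gene and well. Wells with at least 500 genes and a log10 UMI total within 2 SD of their group were kept. Wells were clustered per stage (10 principal components, 30 neighbours, Leiden, leidenalg 0.10.2) and named from 13 fixed marker lists. CM-led clusters that stayed unnamed held 9.23% of P14, 1.46% of P28 and 7.45% of knockdown wells. A cluster named erythroid also had raised CM markers at P4 (365 wells, mean log2 difference 0.577 from the other wells) and at P7 (685 wells, 0.637). Those wells are not among the CM-like ones. Chips had been imaged to select wells with single cells, per the study's methods, and no doublet caller was run. Levels are UMIs of the gene per 10000 UMIs of nuclear genes, summed over a chip's CM-like wells, for chips with at least 10. Genes encoded by mitochondrial DNA, spike-ins and the reporter were left out of that total. The depths of wells count the same genes. Intervals and floors cover counting error only.

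Sums over at least 20 wells were tested with edgeR 4.0.16 (quasi-likelihood, TMM, Benjamini-Hochberg over all genes, threshold 0.05), with DESeq2 1.42.0 as an alternative. On simulated counts the step recovered 98.5% of 200 changed genes for P28 against P4 (13916 genes, 15 false calls) and 99.0% for the knockdown (17919 genes, 10 false calls). The changed genes had at least 200 UMIs and differed by 2 on the log2 scale, and every gene had a dispersion of 0.05. That dispersion was set and not estimated from the chips or animals, so these shares do not measure the power on the real counts. The shNT and shJun animals of the same number shared chips, per the well labels, and that number was the replicate block of an alternative. The genes named are the 9, the 13 atrial and 7 ventricular genes listed with them, and the 8 highest and 5 lowest others by the smaller of the 2 chips' log2 ratios between *Myl7*-led and *Myl2*-led wells (0.5 UMI added to each count). Values were computed with Python 3.11.15 and R 4.3.3.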

Additional observations from a re-analysis of the deposited data

Results flagged for a closer look

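*Sln* in the CM-like wells of knockdown chip 3 stood at 0.0426 UMIs per 10000, far above the other knockdown chips, which lay between 0 and 0.00816. Its 207 UMIs came from 6 of 617 wells, 47.8% of them from 1 well. It was the only 1 of 9 genes with such a gap among those chips, and chance alone gives such a gap in about 1 of 20 groups.

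The 90 negative control wells, which were meant to hold no cell, contained 990 UMIs of *Myl2* in 57 wells and 379 UMIs of *Myl3* in 28 wells. No atrial gene had more than 2 UMIs there. The 30 of these wells on the knockdown chips held 905 of the *Myl2* and 360 of the *Myl3* UMIs, while the 10 at P4 held 5 and 4.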

How the results depend on the processing

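The share of *Myl7*-led wells at P4, 22.3%, was 29.5% with the limit at 0.8, 22.8% with at least 30 UMIs, 13.0% with CMs called well by well, 12.1% over all wells and 22.1% after thinning, and lay between 22.2 and 22.5% without either chip. At P7 it became 3.33% with the limit at 0.8. The share of *Myl4* among essential light chains was 0.914 in *Myl7*-led and 0 in *Myl2*-led wells after thinning, and 0.830 to 0.884 and 0.00377 to 0.00624 when 1 chip was left out.

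Of the listed genes, 8 were called from P4 to P14. The count was 4 with CMs called well by well, 5 with wells capped at 5000 UMIs and 4 with only *Myl2*-led wells, and 3 to 8 when 1 chip was left out (3 without P4 replicate 1, 4 without P4 replicate 2 and 5 without P14 replicate 1). From P4 to P28 it was 6, became 2 with only *Myl2*-led wells, and ran from 3 to 7 when 1 chip was left out (3 without either P4 chip). From P14 to P28 it was 0, became 1 with DESeq2 and 1 with no filter, and ran from 0 to 1 when 1 chip was left out.

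In the knockdown 0 genes were called. DESeq2 called 14, no filter gave 379, and leaving out 1 animal gave 0 to 321 (321 without shNT 1, 191 without shNT 2). With the animal number as a replicate block 6 genes were called. None of the 9 genes was called under any of these, while of the listed genes *Nppa* was called with DESeq2, *Nppa* and *Gja5* with no filter, *Nppa* without shNT 1, and *Nppa*, *Gja5* and *Kcna5* without shNT 2. The cause of these changes was not tested. With only *Myl2*-led wells, 5 of 19 listed genes changed sign from P4 to P14 and 5 from P4 to P28, none of them called before. That cut took out mainly P4 wells, those with more *Myl7*. The median of the atrial list, over 13 genes and then over 12 without *Bmp10*, went from -1.11 to 1.15 and from -1.84 to 0.45. *Nppa* from P4 to P28 went from -3.03 to 1.24. A lone animal is assumed to vary like the others.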
